A study of Brassica napus with 12 samples.

Results

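The upper arm of chromosome A03 of oilseed rape (Brassica napus) carries a stretch of 858 annotated loci whose transcripts were nearly missing from 2 of the 12 labelled leaf libraries, 1 after UV-B and 1 after a solvent spray, while their homologues on chromosome C03 stood higher in the same 2 libraries. The 858 loci, of 101040 in the deposited tables, are those placed on A03 with a start between 1864086 and 5735476 in the coordinates of the tables, which name no genome build. They cover 3871 kb. The limits were drawn from the levels in these libraries, so the low A03 levels are given as a description and were not tested. The C03 homologues, called partners here, are the 786 loci on C03 that the tables match to the same Arabidopsis gene as a member, and their levels did not enter the rule.

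The study compared responses of leaves to UV-B radiation, to feeding by larvae of the diamondback moth Plutella xylostella and to methyl jasmonate (MeJA), the volatile ester of a wound hormone. True leaves of 21-day-old plants of RV31, a line derived from the cultivar Westar, were sampled after 4 h. White light at 70 µmol m-2 s-1 was the control for UV-B at 3 µmol m-2 s-1. In the herbivory group larvae fed for 1 h, and herbivory was set against the same white light libraries here, since a no-herbivory control was not analysed here. By the study's methods the herbivory plants and the sprayed plants were kept under dimmer white light, so herbivory against white light also compares different light levels, and the effects of feeding and light cannot be told apart. MeJA was sprayed as 4 mL of a 100 µM solution, beside 4 mL of distilled water and 4 mL of 0.01% ethanol with 0.01% UN65, a wetting agent. By the study's methods the MeJA spray also held ethanol and UN65, so MeJA against water differs in these as well. Each group has 2 labelled libraries, numbered 41 and 42. Nothing in the labels ties a number to a plant, batch or day, and the sources leave unclear whether a library holds 1 plant or a pool of 3 replicates. P-values therefore measure only the spread between these libraries, which may be technical.

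Oilseed rape is an allopolyploid that arose from a cross of Brassica rapa, the donor of the A chromosomes, and Brassica oleracea, the donor of the C chromosomes. Most of its genes are therefore present as an A copy and a C copy, called homoeologues, which lie in matching order on related chromosomes. The upper arms of A03 and C03 are such a related pair. Related chromosomes can pair and exchange segments at meiosis in this species, and plants of a cultivar can differ in the number of A and C copies they carry. DNA was not measured here.

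The tissue label and the whole data set were checked first. The 7 leaf markers, among them RBCS3B for the small subunit of Rubisco and LHCB1.3 for a light-harvesting protein, summed to between 22621 and 101622 scaled FPKM in the 12 libraries. The sum hides the leaf marker RBCS1A, whose only matched locus was low, at 0.223 to 21.1 FPKM. The 4 seed markers reached at most 6.95 FPKM and the 2 flower markers at most 1.89 FPKM, with the seed storage gene CRU3 at or near 0 throughout. The root sum of 8.06 to 19.4 FPKM came almost wholly from SHR, and CASP1, which marks the root endodermis, stayed at or below 1.25 FPKM. FPKM, the authors' unit, counts fragments per kilobase of transcript, scaled to the size of the library, so levels of different genes can be compared per length. The number of reads behind each value is unknown. Between 56490 and 63356 loci were above 0 in a library, the most of them in UV-B 41, and the 10 highest loci held between 3.35% and 8.72% of the FPKM total. The libraries that stand apart over the A03 stretch are UV-B 41 and ethanol and UN65 41 over most of its length and water 41 over its first part. All 3 carry the number 41, as do the white light, herbivory and MeJA libraries that do not stand apart.

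The gene content of the stretch is ordered. Of the 858 members 818 have an Arabidopsis match, and 745 of these lie on Arabidopsis chromosome 5. Read along A03, 410 members match genes from AT5G12420 to AT5G22980 and the next 320 match genes from AT5G60790 back to AT5G52650, so that a second segment of the same Arabidopsis chromosome follows in the opposite order. The change falls between BnaA03g08760D, which starts at 3981272, and BnaA03g08800D, which starts at 3994965. The members stand for 730 different Arabidopsis genes, of which 633 have at least 1 partner on C03 and 97 have none. Of the 786 partners 729 lie in the first 10 Mb of C03, with quartiles of the partner starts at 3683692 and 6512716, and 507 Arabidopsis genes have a single member and a single partner.

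Not all of the stretch is read in leaves. Over the 12 libraries 455 members had a mean of at least 1 FPKM, 231 lay above 0 with a lower mean, and 172 were listed at 0 in every library. In UV-B 41 and ethanol and UN65 41 respectively 494 and 533 of the 858 members were listed at 0, compared with 252 to 290 in the other 10 libraries. The levels that follow are relative to the median library, which is the median of the 12 scaled values of a locus. In whole leaves, fewer cells with a transcript and less transcript per cell cannot be told apart.

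Over the 455 members with a mean of at least 1 FPKM, the median log2 level relative to the median library, with 1 FPKM added to each value, was -1.76 in UV-B 41 and -1.98 in ethanol and UN65 41. It was -0.05 in water 41 and between 0.03 and 0.18 in the other 9 libraries. The 2 lowest libraries thus lay far outside the range of the rest, and in each case the other library of the group lay inside it. Within the groups, UV-B 41 differed from UV-B 42 by -2.16 and ethanol and UN65 41 from ethanol and UN65 42 by -2.04, while the 3 groups without such a library differed internally by at most 0.06 in size. The median within-group standard deviation of the 12 library levels was 0.0687.

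**Figure D1:**
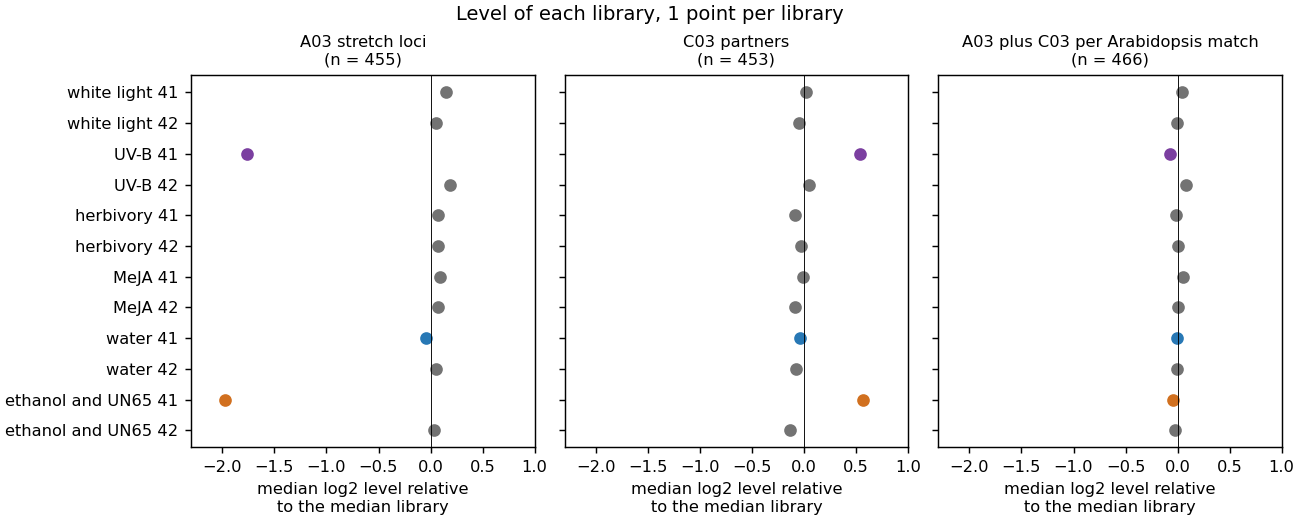
Median log2 level relative to the median library (x axis) in each of the 12 libraries (y axis) for 455 A03 members, 453 C03 partners and the summed output of 466 Arabidopsis matches. UV-B 41 and ethanol and UN65 41 are at -1.76 and -1.98 for A03 and at 0.53 and 0.57 for C03, and their totals are at -0.07 and -0.04.

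Loci elsewhere that bear on the comparison stood near the median library. The 2401 loci on the rest of A03 had medians of -0.07 in UV-B 41 and -0.02 in ethanol and UN65 41, and the 2647 other loci of C03 had medians of -0.04 and -0.01. Placed loci outside the stretch and C03 that match the same Arabidopsis genes as the members, 1084 in all, had medians of -0.08 and -0.04. They can include loci on the rest of A03. The median over all 45818 loci with a mean of at least 1 FPKM was -0.04 and -0.01.

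Because 1 FPKM is added before taking logs, the fall of low members is understated, and 351 members with a median library of at least 2 FPKM were also read as percentages. Their median was 2.66% of the median library in UV-B 41 and 1.70% in ethanol and UN65 41, and 96.7% in water 41. A level under 25% was seen in 273 members in UV-B 41 and in 299 in ethanol and UN65 41, and 108 and 120 members were listed at 0. The 269 members low in both libraries were 98.5% of the first list and 89.97% of the second. Of all 36322 loci at that expression level 0.933% were under 25% in both libraries, and this figure includes the members themselves. Outside the stretch 70 of 35971 loci, 0.195%, met the same limit, on the rest of A03 1 of 1913, and among C03 partners 2 of 373. Each of the other 10 libraries had between 0 and 7 of the 351 members under 25%.

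The share of low members was similar with and without a C03 partner, and no test of the difference was made. Under 25% in both libraries were 244 of 317 members with a partner, 77.0%, and 24 of 31 members that have an Arabidopsis match but no partner, 77.4%. Of the 3 members without an Arabidopsis match 1 was low in both. How reads that fit both an A copy and a C copy were divided between them is not given in the sources used here, and the part of such reads in the few percent that remained was not tested.

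The low level began beside the same loci in both libraries, and its right end was less sharp and differed by a locus. A running median of 11 loci reached -1 or lower from BnaA03g04140D at 1927777 to BnaA03g12450D at 5667934 in UV-B 41, which takes in 442 loci. In ethanol and UN65 41 it ran from the same first locus to BnaA03g12470D at 5680116, over 443 loci. With a running median of 25 loci both began at BnaA03g04170D and ended at 5.59 Mb in UV-B 41 and 5.70 Mb in ethanol and UN65 41. Because the median spans 11 loci, single loci place the limits more closely. The outermost loci under 25% in both libraries, apart from 1 low locus at the very start, were BnaA03g04170D at 1936990 and BnaA03g12450D, which matches the abscisic acid receptor gene RCAR3.

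On the left side the 3 expressed loci outside the rule's limit stood at ordinary levels in both libraries or lower in 1 of them. BnaA03g03950D, a match of the exocyst gene SEC10, was at 35.8% in UV-B 41 and 72.1% in ethanol and UN65 41, BnaA03g03960D at 89.1% and 133%, and BnaA03g03970D, with a THUMP domain, at 68.0% and 107%. Just inside, BnaA03g03990D at 1864086, a wax ester synthase-like acyltransferase, was at 1.09% and listed at 0. The next 4 loci were again near the median library: BnaA03g04030D was at 60.9% and 76.8%, and BnaA03g04040D, a match of the CCAAT-binding subunit gene NF-YA1, was at 101% and 82.1%. BnaA03g04130D stood at 73.3% and 98.0% and BnaA03g04140D at 161% and 104%. From there on low loci prevailed. BnaA03g04170D was at 3.92% and listed at 0, BnaA03g04200D, which matches the thylakoid-lumen cyclophilin CYP20-2, was listed at 0 and at 0.302%, and BnaA03g04240D, a match of the NAC regulator NAC083, was listed at 0 in both.

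On the right side levels between low and ordinary were seen. BnaA03g12420D, a match of the splicing regulator PTB2, was listed at 0 in UV-B 41 and at 0.815% in ethanol and UN65 41, and the RCAR3 match BnaA03g12450D was at 1.60% and 2.52%. BnaA03g12470D, a protein phosphatase 2C, was at 31.9% and 16.0%. The 7 expressed members after it were at 36.1% or more in both libraries, and the last 3 of them were BnaA03g12530D, which matches the organellar tryptophanyl-tRNA synthetase OVA4, at 68.9% and 85.0%, BnaA03g12550D at 226% and 76.0%, and BnaA03g12560D at 36.1% and 91.5%. Outside, BnaA03g12600D, which matches the thylakoid protein-transport gene HCF106, was at 78.7% and 89.6%, BnaA03g12710D at 69.1% and 175%, and BnaA03g12720D at 71.7% and 102%. The members nearest each limit of the rule were therefore mostly not low themselves.

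**Figure D2:**
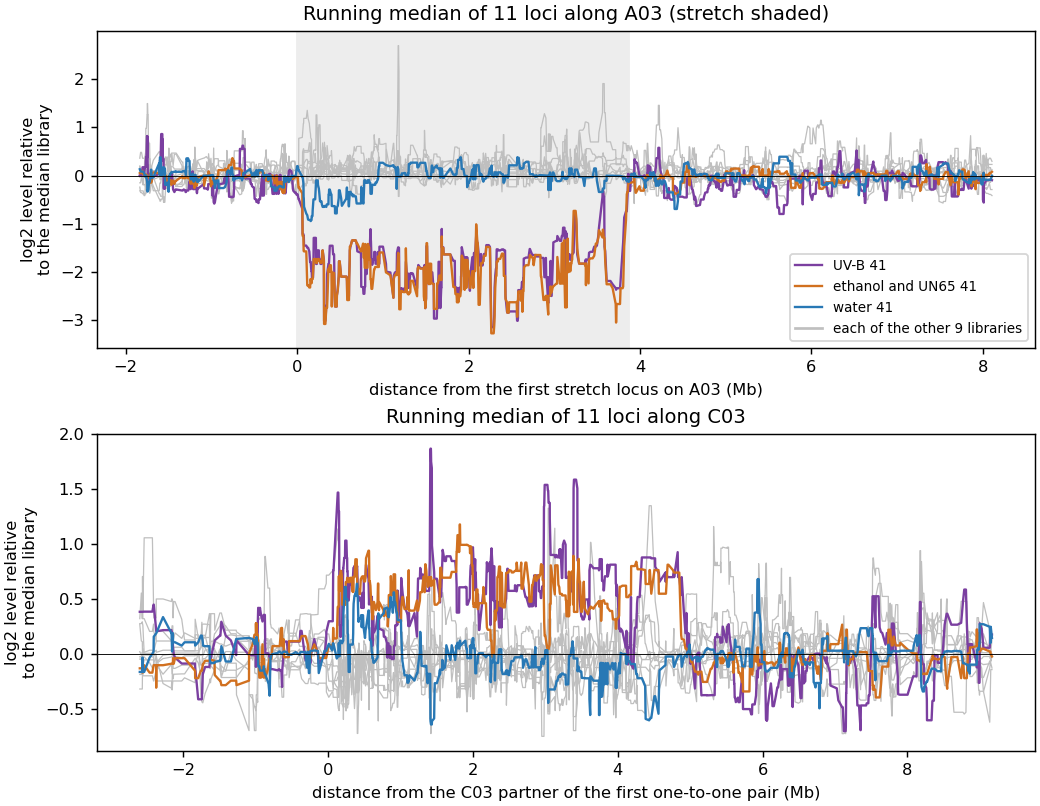
Running median over 11 loci of the log2 level relative to the median library (y axis) against distance along A03, with the stretch shaded, and along C03 (x axis, Mb), 1 line per library. UV-B 41 and ethanol and UN65 41 fall to -1 or lower from 1.93 Mb to 5.67 and 5.68 Mb on A03 and lie above the other libraries on C03, and water 41 dips between 1.94 and 2.64 Mb.

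At the left end the C03 side showed the reverse at 2 loci. BnaC03g05630D at 2715080 and BnaC03g05740D at 2760522 are the partners of BnaA03g04030D and BnaA03g04140D, which kept ordinary levels. BnaC03g05630D was at 8.58% in UV-B 41, 10.6% in ethanol and UN65 41 and 59.2% in water 41, and BnaC03g05740D was at 5.58%, 0.782% and 63.0%. They are the 2 partners under 25% in both libraries, named after their values were seen. In these 2 pairs it was the C copy, and not the A copy, that stood low. Both C copies were the minor ones, with median libraries of 2.87 and 4.97 FPKM against 29.3 and 34.7 FPKM for the A copies. The first lies near the limit of 2 FPKM.

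Between the outermost low loci lie 338 members with a median library of at least 2 FPKM, and 268 of them were under 25% in both libraries. Listed at 0 in both were 79, and 1 of the 338 was listed at 0 in any of the other 9 libraries, water 41 left aside. Only 12 kept at least 50% of the median library in both. These 12, chosen by their values, lie at scattered places: among them are BnaA03g09920D, a match of the temperature-induced lipocalin TIL, at 134% and 102%, BnaA03g06240D, a match of the vacuolar syntaxin SYP21, at 51.1% and 53.3%, and BnaA03g10560D, a match of the GATA regulator GNC, at 235% and 75.2%. The UDP-glycosyltransferase BnaA03g12040D was at 767% in UV-B 41, with 21.6 and 13.3 FPKM in the UV-B libraries and between 0.864 and 5.84 FPKM in the other 10.

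The low level varied along the stretch and was least marked at its right end. In bins of 0.5 Mb from the first member, the median of members with a median library of at least 2 FPKM lay between 0.919% and 6.88% in UV-B 41 and between 0.464% and 6.21% in ethanol and UN65 41 in the first 7 bins. In the last bin, with 26 members, it was 37.7% and 28.2%. The second bin, with 45 members, was the highest of the first 7 in both libraries.

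The library water 41 was lower over only the first part of the stretch, and by less. Its running median was at or below -0.3 from BnaA03g04180D at 1939890 to BnaA03g05800D at 2638282, over 94 loci, so it began beside the left limit of the other 2. In the first bin its members were at 59.5% of the median library and in the second at 78.1%, and beyond these between 90.8% and 111%. Over 43 pairs in its low part the A03 copies were at 53.5% and were below the median library in 41 pairs, and the other 9 libraries had between 10 and 19 of the 43 below. This segment was chosen by the A03 level of water 41 itself, so these A03 values describe the choice and nothing is read from them. The C03 copies of these pairs were at 120%, and the summed pairs at 96.5%. In the 178 pairs beyond it the same library had 102% for A03, 93.0% for C03 and 99.6% for the sum.

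**Figure D3:**
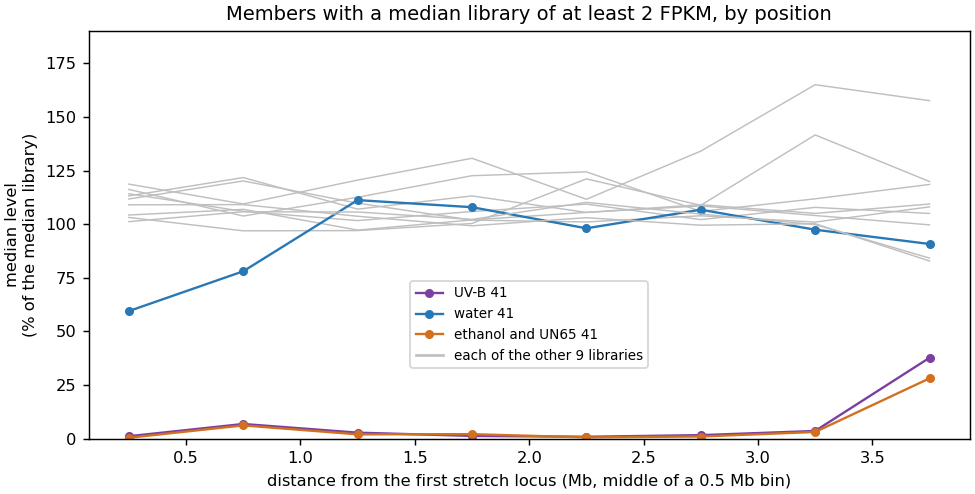
Median percentage of the median library (y axis) of A03 members with a median library of at least 2 FPKM in bins of 0.5 Mb from the first member (x axis), 1 line per library. UV-B 41 and ethanol and UN65 41 lie between 0.464% and 6.88% in the first 7 bins, and water 41 rises from 59.5% in the first bin to 111% in the third.

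The C03 partners stood higher in the libraries in which the members were low. Over the 453 partners with a mean of at least 1 FPKM the median log2 level was 0.53 in UV-B 41 and 0.57 in ethanol and UN65 41, that is 1.45 and 1.48 times the median library. In water 41 it was -0.04, and in the other 9 libraries it lay between -0.13 and 0.05. The 2 libraries did not overlap with the other 10, and each lay above the other library of its own group, UV-B 41 by 0.43 and ethanol and UN65 41 by 0.73. The 431 partners in the first 10 Mb of C03 had medians of 0.58 and 0.60, and the 22 partners farther along C03 had -0.19 and -0.03.

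Summed output was close to that of the other libraries, though UV-B 41 and ethanol and UN65 41 were the lowest by a small amount. For each of 466 Arabidopsis genes with a mean sum of at least 1 FPKM, all A03 members and C03 partners were added. The median log2 level of the sums was -0.07 in UV-B 41, -0.04 in ethanol and UN65 41 and -0.01 in water 41, against -0.03 to 0.08 in the other 9 libraries. Set against the other library of its group, UV-B 41 was lower by 0.29 on this measure, and over all loci it was lower by 0.22. Ethanol and UN65 41 differed from ethanol and UN65 42 by 0.00 for the sums and 0.02 for all loci. The A03 share of the sums had a median of 1.04% in UV-B 41 and 0.380% in ethanol and UN65 41, 41.2% in water 41 and between 45.3% and 47.8% in the remaining 9.

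The most direct view comes from 222 pairs with a single member and a single partner, both with a median library of at least 2 FPKM, between the outermost low loci. Their A03 copies summed to 333 FPKM in UV-B 41 and 240.1 FPKM in ethanol and UN65 41, to 3060 FPKM in water 41 and to between 3287 and 6795 FPKM in the other 9 libraries. Their C03 copies summed to 8531 and 7695 FPKM in UV-B 41 and ethanol and UN65 41, and to between 3787 and 8284 FPKM in the other 10. The A copies thus gave 3.76% and 3.03% of all transcript from these pairs, 36.3% in water 41 and 44.03% to 46.5% elsewhere. The highest C03 sum among the other libraries was that of UV-B 42, whose A03 sum was also the highest. Both copies together summed to 8864 FPKM in UV-B 41 and 7935 FPKM in ethanol and UN65 41. In the other 10 libraries they summed to between 7073 FPKM in herbivory 42 and 15079 FPKM in UV-B 42.

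Pair by pair, the median C03 copy stood at 156% of the median library in UV-B 41, with quartiles of 106.8% and 207.5%, and at 159% in ethanol and UN65 41, with quartiles of 125% and 201%. The C03 copy was above the median library in 181 of 222 pairs in UV-B 41, 81.5%, where 45% of all loci at that expression level were, and in 197 in ethanol and UN65 41, 88.7%, where 45.6% of all loci were. In the other 10 libraries the count ran from 58 to 129. More than 200% was reached by 62 and 57 C03 copies, against 3 in water 41, and the share of all loci above 200% is not given here. The summed rise of C03 came to 131% of the FPKM missing from A03 in UV-B 41 and to 98.4% in ethanol and UN65 41, both relative to the median library. Such sums lean on abundant pairs. The C copy of GASA4, described below, was at 680 FPKM in ethanol and UN65 41 against a median library of 128 FPKM. That of CHLH was at 430 FPKM in UV-B 41 and 126 FPKM in ethanol and UN65 41, against 139 FPKM. The ratio without such pairs was not taken. The ratio of summed rise to missing FPKM was also taken by A share of the pair, under 40%, 40% to 60% and over 60%. It was 237%, 81.7% and 19.6% in UV-B 41 and 162%, 68.1% and 26.5% in ethanol and UN65 41. The ratio follows in part from the A share by arithmetic, since a smaller A copy has less to lose. The median C03 copy in these classes was at 169%, 154% and 148% in UV-B 41. In ethanol and UN65 41 it was at 152%, 172% and 157%. Against the other library of its group, the C03 sum was 8531 FPKM in UV-B 41 and 8284 FPKM in UV-B 42, where the A copies were present, and 7695 FPKM in ethanol and UN65 41 and 4190 FPKM in ethanol and UN65 42.

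The sum of a pair differed with the share of the A copy in the median library. In 99 pairs whose A copy gives under 40% of the median-library sum, the total was 117% of the median library in UV-B 41 and 104% in ethanol and UN65 41. In 104 pairs with an A share of 40% to 60% it was 81.5% and 90.01%. In the 19 pairs with an A share over 60% it was 64.0% and 68.5%. The order of the classes was the same in both libraries. C03 copies at exactly 200% with A03 copies at 0 would give medians of 138%, 102% and 63.6% in these classes. The total follows in part from the A share by arithmetic, since a larger copy at 0 takes more from the sum, and no test was made.

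**Figure D4:**
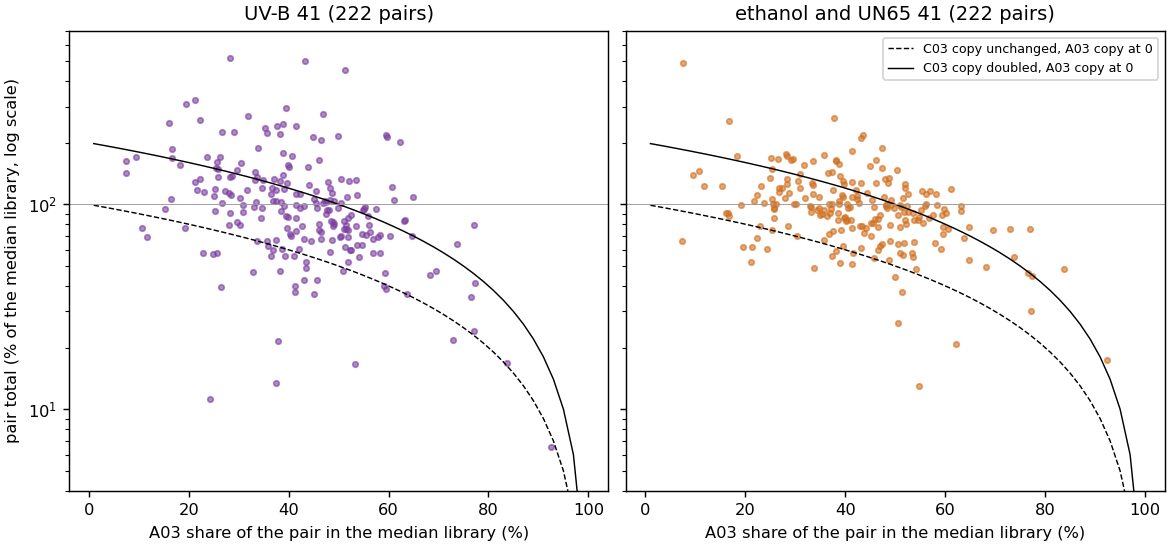
Summed output of each of 222 pairs as a percentage of the median library (y axis, log scale) against the A03 share of the pair in the median library (x axis, %), in UV-B 41 and ethanol and UN65 41. The dashed line marks an unchanged C03 copy and an A03 copy at 0 and the solid line a C03 copy at 200%, and the class medians fall from 117% and 104% at A shares under 40% to 64.0% and 68.5% at shares over 60%.

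By bin along A03 the median C03 copy lay between 128% and 179% in UV-B 41 and between 147% and 180% in ethanol and UN65 41, with the sums between 76.9% and 103% and between 83.4% and 99.9%. The last bin, where the A copies stood at 36.1% and 27.7%, had C copies at 170% and 163%. In water 41 the C copies were at 121% and 117% in the first 2 bins and between 84.1% and 96.5% beyond.

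Among the 10 pairs with the highest mean sums, between 166 and 615 FPKM, the A copy was under 25% of the median library in 9 pairs in UV-B 41 and in all 10 in ethanol and UN65 41. The exception was BnaA03g06050D, at 70.7% in UV-B 41. The sum was at least 80% of the median library in 8 and 5 of them. These pairs were chosen by their sums and not by their change, and the following account takes them in order of function.

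Genes for ribosomal proteins differed in what remained of the A copy, and the L36 protein match BnaA03g07980D, named after its values were seen, kept 69.1% and 58.3% of the median library. BnaA03g04820D, which matches AT5G14320 for a ribosomal protein of the S13/S18 family, was at 300.3, 131, 348, 280, 75.1, 278, 158, 168 and 219 FPKM in white light 41 and 42, UV-B 42, herbivory 41 and 42, MeJA 41 and 42, water 42 and ethanol and UN65 42, at 134 FPKM in water 41, and at 0.0634 and 0.307 FPKM in UV-B 41 and ethanol and UN65 41. Its partner BnaC03g06390D was at 659 and 614 FPKM in those last 2 libraries, at 696 FPKM in water 41 and at 445, 259, 793, 336, 96.9, 392, 362, 289 and 340 FPKM in the order of the other 9. The A copy was thus lowest in the 2 libraries by far, and the C copy was among the highest 4 there, with water 41 and UV-B 42. The pair summed to 107% and 99.9% of the median library.

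A pair read almost wholly from its A copy was different. PSRP6 encodes a plastid-specific ribosomal protein, and its match BnaA03g06760D gave 92.5% of the pair in the median library. It was at 359, 149, 457, 284, 139, 173, 177, 147 and 184 FPKM in the 9 ordinary libraries, taken as before, at 243 FPKM in water 41 and at 0.111 and 0.701 FPKM in UV-B 41 and ethanol and UN65 41. The C copy BnaC03g08640D was at 12.3 FPKM in UV-B 41, 32.5 FPKM in ethanol and UN65 41 and 19.3 FPKM in water 41, and at 21.3, 11.8, 29.4, 13.7, 8.13, 14.8, 16.6, 13.2 and 12.5 FPKM in the rest. In UV-B 41 it lay among the lower values and in ethanol and UN65 41 it was the highest. The pair fell to 6.52% and 17.4% of the median library, the lowest sums of the 10. The S4 ribosomal protein gene pair of AT5G15200, BnaA03g05300D and BnaC03g06830D, reached 37.4% and 83.5%.

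Chloroplast genes differed from each other. CHLH encodes the large subunit of magnesium chelatase, which starts the chlorophyll branch. Its match BnaA03g04440D was at 19.8 and 4.98 FPKM in UV-B 41 and ethanol and UN65 41, at 103 FPKM in water 41 and at 310.3, 75.1, 563, 192, 44.7, 74.8, 156, 79.8 and 97.1 FPKM in the others, and it was therefore low even where the gene varied widely. The C copy BnaC03g05980D was at 430 and 126 FPKM in the 2 libraries, at 264 FPKM in water 41 and at 309.9, 92.1, 535, 186, 60.3, 62.1, 152, 69.3 and 99.2 FPKM in the others, so that it overlapped with them. The sums were 178% and 51.9%. For CYP20-2 the A copy BnaA03g04200D was listed at 0 in UV-B 41 and at 0.081 FPKM in ethanol and UN65 41, against 13.8 to 74.5 FPKM in the other 10. The sum with BnaC03g05790D, the larger copy, was 107% and 90.8%. The pair of AT5G58260, annotated as an oxidoreductase acting on NADH or NADPH, summed to 102% and 62.8%.

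**Figure D5:**
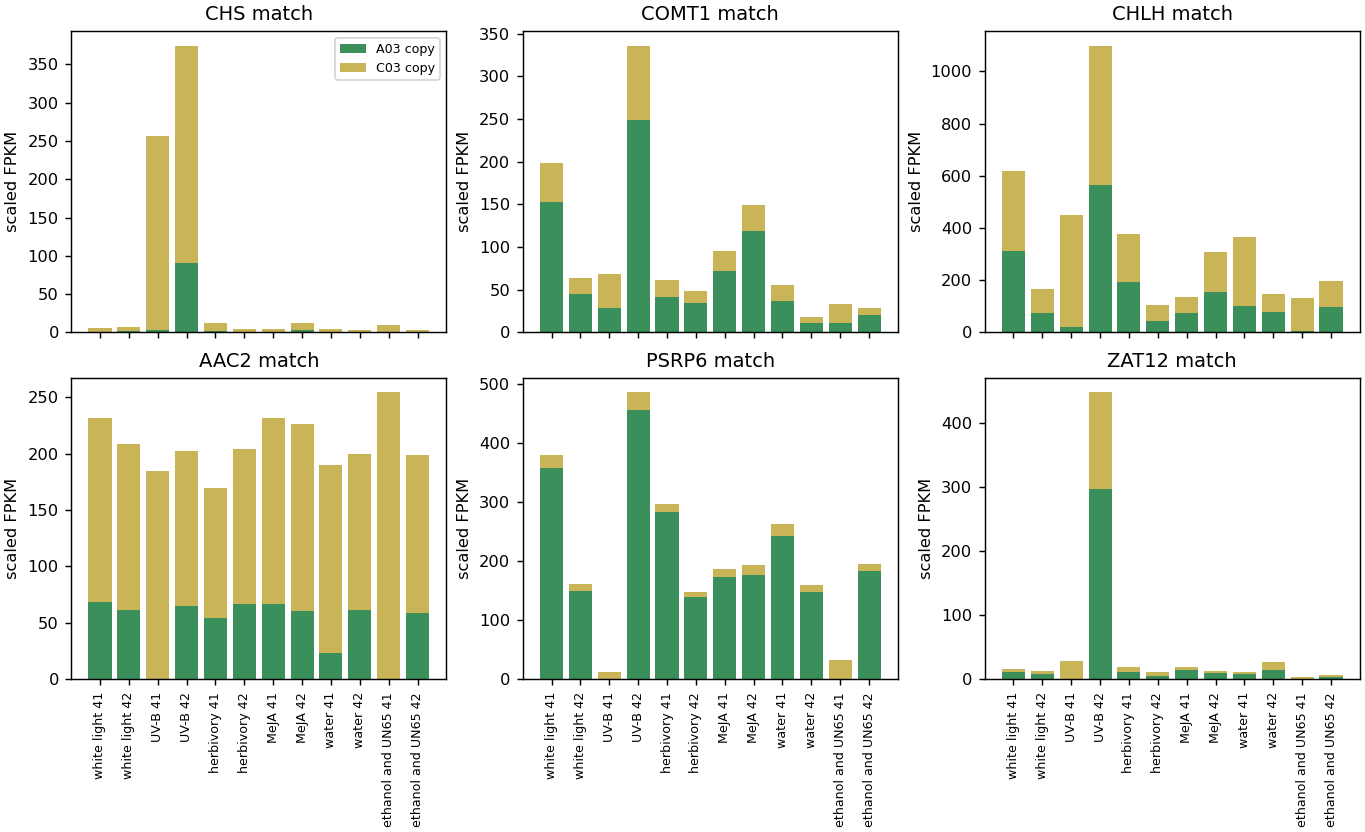
Scaled FPKM (y axis, from 0) of the A03 copy and the C03 copy, stacked, in each of the 12 libraries (x axis) for the matches of CHS, COMT1, CHLH, AAC2, PSRP6 and ZAT12. The A03 part is nearly missing in UV-B 41 and ethanol and UN65 41 in 5 of the 6 panels, and in the COMT1 panel it is 41.7% and 32.4% of the bar.

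The mitochondrial ADP/ATP carrier AAC2 shows the low A copy beside the higher C copy at a gene that varied little otherwise. Its A copy BnaA03g04370D was at 68.4, 61.5, 65.4, 54.7, 67.1, 66.8, 60.7, 61.9 and 59.1 FPKM in the 9 ordinary libraries, at 23.4 FPKM in water 41, and at 0.0282 and 0.0972 FPKM in UV-B 41 and ethanol and UN65 41. The C copy BnaC03g05910D was at 185 and 254 FPKM in the last 2 and at 166 FPKM in water 41, and at 163, 147, 137, 115, 137, 165, 166, 138 and 140 FPKM in the 9. The 2 libraries had the highest C copy values with no overlap. Their A copy values were the lowest, which describes the choice of the stretch, and the sums were 91.1% and 125%.

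GASA4, a small cysteine-rich protein gene regulated by gibberellin, is expressed chiefly from C03. Its A copy BnaA03g05320D was listed at 0 in both libraries and lay between 4.02 and 24.9 FPKM in the other 10. The C copy BnaC03g06850D was at 680 FPKM in ethanol and UN65 41, 225 FPKM in UV-B 41, 169 FPKM in water 41, and at 20.4, 76.1, 30.8, 65.7, 140, 69.1, 116, 382 and 203 FPKM in the other 9, so it ranged widely also where the A copy was present. The sums were 163% and 491%. Of the remaining pairs of the 10, SERAT1;1, a serine acetyltransferase of cysteine synthesis, summed to 118% and 55.7%, and AT5G16470, a C2H2 zinc finger gene, to 142% and 66.0%.

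The stretch holds members of several pathways that bear on the treatments. Of lists written from general knowledge with earlier results of these data known, 2 of 23 UV-B and flavonoid genes, 1 of 25 jasmonate genes, 1 of 24 photosynthesis and chlorophyll genes, 2 of 23 glucosinolate and sulfur genes, 2 of 21 light, clock and flowering genes, 6 of 29 stress and defence genes, 3 of 11 housekeeping genes and 8 of 17 cell wall, auxin and growth genes have a match there. Of all 21607 Arabidopsis genes matched in the tables, 3.38% have a member in the stretch, and the lists were not tested against this share. The 8 include the SAUR genes, small auxin-responsive genes that sit side by side in Arabidopsis and on A03. Summed over A03 and C03, the SAUR20 match was at 83.4 and 89.5 FPKM in UV-B 41 and 42 and at 4.25 to 31.0 FPKM in the other 10, and the SAUR24 match was at 72.2 and 139 FPKM against 2.71 to 17.4 FPKM. The A03 share of SAUR20 was 2.44% in UV-B 41, 2.89% in ethanol and UN65 41 and 34.7% to 64.8% in the other 10. Both UV-B libraries were thus high in summed SAUR20 and SAUR24 output although 1 of them had almost none from A03. For SAUR21, which has more A03 than C03 copies, the sums were 22.0 and 91.9 FPKM in the UV-B libraries against 2.04 to 15.6 FPKM, with A03 shares of 37.2% in UV-B 41, 0 in ethanol and UN65 41 and 65.5% to 94.8% elsewhere. The 2 genes of the UV-B and flavonoid list are CHS and COMT1.

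Chalcone synthase, CHS, catalyses the first committed step of flavonoid synthesis and is a classic target of UV-B signalling. Its A copy BnaA03g04590D was at 3.51 and 90.4 FPKM in UV-B 41 and 42, at 0.345 and 1.28 in white light 41 and 42, at 2.44 and 0.623 after herbivory, 0.949 and 3.48 after MeJA, 0.143 and 0.885 in water, and was listed at 0 in ethanol and UN65 41 and at 0.551 FPKM in ethanol and UN65 42. Its C copy BnaC03g06120D was at 253 and 284 FPKM in the UV-B libraries, 5.44 and 5.65 FPKM in white light and between 2.11 and 9.73 FPKM in the other 8. Both UV-B libraries had a high C copy, and 1 of them a high A copy. For the C copy, limma gave a log2 fold change of 5.36 (SE 0.59, adjusted p = 0.00917, n = 2 per group) against white light on the log2(FPKM + 1) scale. For the A copy it gave 3.53 (SE 1.14, adjusted p = 0.125). Without UV-B 41 the A copy had 5.71 (SE 0.67, adjusted p = 0.00699), with the lone UV-B library taken to vary like the other groups. The call of the C copy held in 18 of 21 alternatives, with adjusted p between 0.0053 and 0.191.

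COMT1 encodes caffeic acid O-methyltransferase of the phenylpropanoid pathway. The A copy BnaA03g11990D, at the right end of the stretch, was at 28.6 and 249 FPKM in UV-B 41 and 42, at 152 and 45.0 FPKM in white light, 42.1 and 34.7 FPKM after herbivory, 72.1 and 119 FPKM after MeJA, 36.4 and 11.1 FPKM in water, and 10.9 and 20.5 FPKM with ethanol and UN65. The C copy BnaC03g14720D was at 40.04 and 87.2 FPKM after UV-B, 45.9 and 19.0 in white light, 19.9 and 13.9 after herbivory, 23.8 and 30.4 after MeJA, 19.2 and 6.76 in water, and 22.7 and 8.48 FPKM with ethanol and UN65. Levels in FPKM thus overlapped between groups in both copies. The A share of the pair was 41.7% in UV-B 41 and 32.4% in ethanol and UN65 41, and 62.1% to 79.6% in the other 10, so the pair moved as its neighbours did but by less. For UV-B against white light the A copy had a log2 fold change of 0.04 (limma, SE 0.98, adjusted p = 0.991) and the C copy 0.97 (SE 0.65, adjusted p = 0.423). Without UV-B 41 they had 1.57 (adjusted p = 0.334) and 1.52 (adjusted p = 0.294), and none of the 4 passed.

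The A copies of the other listed genes were also low in these libraries, to different degrees. SULTR4;1, a vacuolar sulfate exporter, had its A copy BnaA03g04410D at 0.369 and 2.14 FPKM in UV-B 41 and ethanol and UN65 41 and at 2.62 to 51.0 FPKM in the other 10, highest in both MeJA libraries. The C copy BnaC03g05940D was at 49.1 and 77.9 FPKM in the MeJA libraries, 45.0 FPKM in ethanol and UN65 41 and 4.25 to 17.3 FPKM elsewhere. RVE1, a MYB-like factor of the clock, had its A copy BnaA03g06490D listed at 0 in both libraries and at 1.504 to 18.4 FPKM in the rest. FY, which acts in messenger RNA 3′ end formation and flowering time, had its A copy BnaA03g04360D at 0.0212 FPKM in UV-B 41 and at 0 in ethanol and UN65 41, against 1.90 to 6.61 FPKM. SAG101, a partner of the immune regulator EDS1, had its A copy BnaA03g05130D at 0.0998 and 0.0405 FPKM, against 5.17 to 23.6 FPKM. The methionine synthase MS1 match BnaA03g06790D kept more, at 40.6 and 32.3 FPKM against 54.9 to 260.4 FPKM, and the summed pair was at 64.0% and 55.4% of the median library.

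Members without a partner on C03 had no counterpart there to add. The most abundant was BnaA03g11710D, which matches the thiazole synthase THI1 of thiamine synthesis, at 37.8 FPKM in UV-B 41, 3.62 FPKM in ethanol and UN65 41 and 64.6 to 374 FPKM in the other 10. BnaA03g12310D, a match of the ubiquitin-conjugating enzyme UBC9, was at 57.3 and 8.50 FPKM against 76.3 to 299 FPKM, and BnaA03g08070D, a ribosomal S8e protein, at 5.22 and 6.22 FPKM against 39.6 to 125 FPKM. BnaA03g10670D, a ribosomal S30 protein, was listed at 0 and at 0.232 FPKM against 16.97 to 64.7 FPKM. For these 4 the 2 libraries were below all the others. The stretch was chosen by levels in these libraries, so this describes the choice and nothing is read from it. The TIL match BnaA03g09920D, at 52.2 and 39.97 FPKM against 20.2 to 61.4 FPKM, overlapped with the other 10.

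Treatment responses were read by limma over 51156 loci, of which 514 are members and 492 partners. Loci with an adjusted p under 0.05 that differed by 1 or more on the log2 scale were called. For UV-B against white light 2.75% of all loci were called, 2.01% higher and 0.743% lower. An unadjusted p under 0.05 in limma was seen in 119 partners. The share of all loci at that limit is not given here, so nothing is read from the 119. Of the partners 14 were called, all higher, which is 2.85% and so close to the background. The count was 1 without white light 41, 0 without white light 42, 5 without UV-B 42, 15 without UV-B 41 and 7 to 10 without any other single library. Their median log2 fold change was 0.31, against -0.01 over all loci, and it contains the higher C03 level of UV-B 41. Of the members 1 was called, higher, and the median was -0.85. The rule used UV-B 41, so nothing is read from the members' count, and their median standard error of 0.77 was above the 0.38 of all loci.

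The partners with the largest called rises after CHS were of several kinds. BnaC03g11570D, a match of ZAT12, a zinc finger regulator of stress responses, was at 29.1 and 150.4 FPKM in UV-B 41 and 42, 4.54 and 5.94 FPKM in white light, and 2.55 to 13.3 FPKM in the other 8 libraries. Both UV-B libraries lay above all others, with a log2 fold change of 3.44 (SE 0.72, adjusted p = 0.0452). The A copy BnaA03g09250D was at 0.0916 and 297 FPKM after UV-B, 10.8 and 7.65 FPKM in white light, listed at 0 in ethanol and UN65 41, and between 4.27 and 14.2 FPKM in the remaining 7. Its highest and nearly its lowest value thus came from the same group. BnaC03g10530D, matching AT5G21940 of unknown function, was at 70.6 and 68.9 FPKM after UV-B and 6.16 and 5.33 FPKM in white light, with 3.05 to 23.6 FPKM in the others (log2 fold change 3.39, SE 0.46, adjusted p = 0.0162). Its A copy BnaA03g08280D was at 0.868 and 68.6 FPKM after UV-B, and at 6.92 and 2.65 FPKM in white light. The calls of BnaC03g11570D and BnaC03g10530D held in 7 and 17 of 21 alternatives.

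The SAUR partner BnaC03g08750D, matching AT5G18080, was at 28.5 and 32.7 FPKM after UV-B and 3.43 and 1.95 FPKM in white light, and at most 3.68 FPKM elsewhere, so the UV-B libraries did not overlap with the rest (log2 fold change 3.12, SE 0.50, adjusted p = 0.0251). BnaC03g12790D, matching AT5G57785, was at 50.2 and 19.6 FPKM after UV-B and 1.85 and 4.22 FPKM in white light, and at most 4.92 FPKM elsewhere (3.07, SE 0.58, adjusted p = 0.0375). The called member was the SAUR gene BnaA03g06820D, matching AT5G18030, at 7.95 and 10.6 FPKM after UV-B, 1.57 and 1.19 FPKM in white light and 0 to 0.81 FPKM elsewhere (2.104, SE 0.36, adjusted p = 0.0281). Unlike its neighbours it was high in UV-B 41 and listed at 0 in ethanol and UN65 41. The calls of BnaC03g08750D, BnaC03g12790D and BnaA03g06820D held in 15, 3 and 14 of 21 alternatives. SAUR copies that lie side by side and are alike may share reads, so the value of a single copy is uncertain.

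Without UV-B 41, 13 members were called for UV-B against white light, all higher, of which 1 had also been called with all libraries. Of all 50484 loci then tested 4.77% were called. Among the 13, the ZAT12 match BnaA03g09250D had 4.88 (SE 0.90, adjusted p = 0.0275), against 0.84 (adjusted p = 0.849) with all libraries. The AT5G21940 match BnaA03g08280D had 3.69 (SE 0.68, adjusted p = 0.0270), against 1.08 (adjusted p = 0.679). Of the partners 15 were called without UV-B 41, 14 higher and 1 lower, and 9 of these had been called with all libraries.

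The other comparisons called few loci. For herbivory against white light 0.0274% of all loci were called, 0.0195% higher and 0.00782% lower, and of the members 1, higher, BnaA03g11020D, matching AT5G56240 of unknown function. It was at 3.91 and 3.86 FPKM after herbivory and 3.20 and 2.26 FPKM in water, and listed at 0 in the other 8 libraries. The same locus was the 1 member called lower for MeJA against water, where 0.389% of all loci were called, 0.375% higher and 0.0137% lower, and no fold is given against groups listed at 0. No partner was called for herbivory in limma. An unadjusted p under 0.05 was seen in 19 partners, again without the share of all loci, so nothing is read from it. For MeJA the partner BnaC03g07940D, an inositol trisphosphate kinase-like gene matching AT5G16760, was at 9.92 and 10.55 FPKM against 0.837 and 1.38 FPKM in water, and at 2.01 to 6.18 FPKM in the other 8 libraries (log2 fold change 2.43, SE 0.32, adjusted p = 0.0327). It was the 1 partner called there, and the call held in 7 of 21 alternatives. Of the libraries left out one at a time, only the omission of a white light library kept it, and the same holds for BnaA03g11020D under MeJA. The herbivory call of BnaA03g11020D was lost without either white light, MeJA or ethanol and UN65 library.

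For ethanol and UN65 against water 0.00391% of all loci were called, 0.00195% in each direction, and in limma neither a member nor a partner was. At an unadjusted p under 0.05 there were 11 members and 9 partners, and the share of all loci at that limit is not given here. The stretch was chosen by levels in these libraries, so nothing is read from the members' count. The members' median log2 fold change was -0.88 and the partners' 0.28, with 1 of the 2 libraries of the first group low over most of the stretch and 1 of the 2 water libraries low over its first part.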

How the data were processed

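The authors sequenced RNA of true leaves, aligned reads with TopHat2 2.1.12 and estimated expression with Cufflinks 2.2.1, per the submitters' processing notes. The deposited matrix holds FPKM, normalised for length and library by the authors. Loci, positions and Arabidopsis matches come from a comparison table of the authors, whose fold changes, p-values and q-values were not used, nor were 22 single-library columns without a matching label. A factor per library, the median over loci of its ratio to the 12-library mean, was divided out, as the columns may have been scaled separately. The loci reaching 1 FPKM in 2 or more libraries were fitted as log2(FPKM + 1) with limma 3.58.1 (R 4.3.3), using group means from all 12 libraries, a trended prior variance and Benjamini-Hochberg adjustment over all loci tested. The fit was tested on simulated data. The number of reads per library, and so the precision of single values, is unknown.

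The members, lists and tests were chosen with earlier results of these data known. Genes named are the 10 pairs with the highest sums, listed genes with a mean sum of at least 5 FPKM, the 3 expressed loci on each side of both limits, and up to 5 called members and partners per comparison. The 5 members without a partner that had the highest median library were also named. Others were named after their values were seen. Alternatives were other pseudocounts, filters and scalings, compared groups alone, a replicate block, pairs of single copies, a wider running median, each library left out, and, chosen after seeing the data, the 3 libraries UV-B 41, ethanol and UN65 41 and water 41 left out together. No sequences were printed, and the promoters were not analysed here.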

Additional observations from a re-analysis of the deposited data

How the results depend on the processing

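The direction of the A03 level in UV-B 41 and in ethanol and UN65 41, and that of the C03 level, was the same under every alternative run. For A03 in UV-B 41 (-1.76) and ethanol and UN65 41 (-1.98), a mean of at least 5 FPKM gave -2.85 and -2.98, no filter -1.13 and -1.24, a pseudocount of 0.1 -3.92 and -4.17, and columns of equal totals -1.66 and -1.81, with -1.87 in the second as deposited. For C03 (0.53 and 0.57), no filter gave 0.27 and 0.37, a pseudocount of 0.1 0.62 and 0.65, and values as deposited 0.24 and 0.64. A mean of at least 5 FPKM gave 0.63 in UV-B 41, and equal totals and pairs of single copies gave 0.78 and 0.63 in ethanol and UN65 41. The C03 level of water 41 as deposited was 0.050. The total of UV-B 41 (-0.07) was -0.29 as deposited and -0.036 with equal totals. That of ethanol and UN65 41 (-0.04) was -0.0014 as deposited, -0.011 in pairs of single copies and, reversed, 0.11 with equal totals, and that of water 41 (-0.01) was 0.064 and -0.056. These scalings moved the median of all loci, from -0.04 to -0.26 in UV-B 41 as deposited and from -0.01 to 0.12 in ethanol and UN65 41 with equal totals. A03 shares stayed within the within-group spread. With a running median of 25 loci the last low locus was at 5.59 Mb in UV-B 41 and 2.57 Mb in water 41.

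Calls depended on the setting. For UV-B the 1 called member became 0 with a pseudocount of 0.1 or 0.5 and with the compared groups alone, 6 without the 3 libraries UV-B 41, ethanol and UN65 41 and water 41 (chosen after seeing the data), and 0 to 13 with single libraries left out. The 14 called partners became 7 with a pseudocount of 0.1, 9 as deposited, 8 without a filter, 0 with the compared groups alone, 6 without the 3 libraries, and 0 to 15 with single libraries left out. The single member called for herbivory and for MeJA became 0 with a pseudocount of 0.1, the compared groups alone or the 3 libraries left out, and 0 to 1 with single libraries left out. The partner called for MeJA became 0 without a filter, with the compared groups alone or without the 3 libraries, and 0 to 1 with single libraries left out. For ethanol and UN65 no filter gave 1 member, and single libraries left out gave 0 to 1 members and 0 partners. Over all loci the counts ran from 0 to 2409 for UV-B (1408), 0 to 670 for herbivory (14), 0 to 292 for MeJA (199) and 0 to 267 for ethanol and UN65 (2). The cause was not tested.

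With the replicate block, 3 members and 13 partners were called for UV-B, and none for herbivory, MeJA or ethanol and UN65. Whether same-numbered libraries share more than a label is unknown and was not tested. Their deviations correlated above 0.1 in 4 of 15 pairs of groups, and the 15 correlations ran from -0.362 to 0.403. With 2 libraries per group and unknown depth, single loci listed at 0 carry no limit of detection.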

Other observations

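Loci outside the stretch with the same pattern, under 25% of the median library in UV-B 41 and ethanol and UN65 41 and at least 50% in the other 9 libraries with water 41 left aside, were counted after the values were seen. There were 36 of 35971, 0.1001%, against 195 of 351 members. Of the 36, 22 lie on sequences not placed on a chromosome, among them 11 on A sequences assigned to no chromosome and 5 on sequences assigned to A03 without a position. These 11 and 5 are 0.818% of 1345 and 2.38% of 210 such loci at that expression level. The Arabidopsis matches of 16 of the 36 fall in the same blocks as those of the members, and 13 of these 16 are on unplaced A sequences. The share of all loci that match these blocks is not given here. BnaA03g56040D, a match of the chloroplast chaperonin CPN20, was at 3.98 and 3.28 FPKM in UV-B 41 and ethanol and UN65 41, with a median library of 110.5 FPKM. Another 8 of the 36 lie on A08, 0.680% of 1177 loci there, and several of these start between 17817782 and 17887486.

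JAZ10, a repressor of jasmonate signalling and the jasmonate list's gene in the stretch, has no C03 partner. It was named after its values were seen. Its match BnaA03g04250D was listed at 0 in UV-B 41, water 41 and ethanol and UN65 41. It was at 5.76 FPKM in UV-B 42, 5.27 and 1.08 FPKM in white light, 4.98 and 6.50 FPKM after herbivory, 6.12 and 2.85 FPKM after MeJA, 0.186 FPKM in water 42 and 0.373 FPKM in ethanol and UN65 42.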
